A study of Rattus norvegicus with 12 samples.

Results

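Rings of rat aorta cultured under tumour necrosis factor alpha (TNF) in a fibrin gel were compared with rings cultured under TNF in a collagen gel. The comparison takes the 3 arrays titled as TNF-treated fibrin cultures minus the 3 titled as TNF-treated collagen cultures, 6 of the 12 arrays of the series. It was fitted over 14324 genes, each represented by 1 probe set. The fibrin TNF and collagen TNF groups were aortic rings of male Fisher 344 rats aged 1 to 2 months, in serum-free endothelial basal medium to which recombinant rat TNF-alpha was added at 10 ng/ml. RNA was taken at day 2. The fibrin control and collagen control groups, also 3 arrays each, were the same cultures without TNF. Their levels serve below mainly where the effect of the gel is set against its effect without TNF. Their arrays also entered the choice of probe sets and the spread estimate shared by the 4 groups. They therefore bear on every standard error, p-value and call of the main fit. The RNA of 4 to 6 rings was pooled per sample, and an input of 200 ng was hybridised to an Affymetrix array that probes whole transcripts. The titles call the replicates biological but do not say whether they came from separate animals, so the p-values reflect only how these samples vary, and that variation may be technical. A ring is a piece of vessel wall that holds endothelial, smooth muscle, fibroblast, nerve and immune cells. In RNA from the whole ring, fewer cells of a type and less RNA per cell cannot be told apart.

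The aortic ring assay follows new capillaries as they sprout from the cut wall into the surrounding gel. Fibrin is the provisional matrix of clots and wounds, whereas type I collagen is a stable interstitial matrix. TNF binds its receptors on most cells of the wall, activates the transcription factor NF-kB and induces chemokines, cytokines and endothelial adhesion molecules. Type I interferons induce antiviral genes through the interferon-stimulated response element, which is bound by a complex that contains STAT2 and IRF9. IRF7 amplifies the interferon genes themselves.

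Levels are given on a log2 scale, so a difference of 1 is a doubling; levels of different probe sets are not comparable with each other. A gene was called when its limma p-value adjusted over all 14324 genes was below 0.05, and errors of differences are standard errors of that fit. The median standard error was 0.09, and the number of arrays limits the precision. Array medians were 5.91 to 5.93 in fibrin TNF and 5.94 to 5.97 in collagen TNF. Over the 14324 genes the arrays correlated at 0.996 within fibrin TNF, 0.997 within collagen TNF and 0.990 to 0.994 between them. Endothelial markers averaged 7.91 to 8.18 on the fibrin TNF arrays and 8.13 to 8.20 on the collagen TNF arrays, and smooth muscle contractile markers 7.82 to 7.99 in fibrin TNF and 7.96 to 8.11 in collagen TNF.

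With TNF, 1173 genes (8.19%) differed between the gels. In fibrin, 652 genes (4.55% of all tested) were higher and 521 (3.64%) were lower. The higher side held the larger differences: 110 genes were higher and 52 lower by more than 1 on the log2 scale, 32 and 4 by more than 2, and 10 and 0 by more than 3. Without regard to any test, all 3 fibrin TNF arrays lay above all 3 collagen TNF arrays for 14.8% of genes, and below them for 12.9%. The total was 768 without fibrin TNF replicate 1 and 727 without collagen TNF replicate 3. The higher genes numbered 433 and 428 without collagen TNF replicates 2 and 3, and the lower ones 315, 316 and 299 without fibrin TNF replicate 1, collagen TNF replicate 1 and collagen TNF replicate 3. Centring each array on its median changed the split to 880 higher and 387 lower, and quantile normalization to 575 and 565. The largest increases in fibrin belonged to interferon-response genes and neutrophil-attracting or T cell-attracting chemokines, and the 8 largest decreases to the hypoxia gene Car9, the macrophage genes Cd163, Clec10a, F13a1 and Mrc1, the enzyme gene Akr1c14, Tmem178a and the growth factor Igf1.

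**Figure D1:**
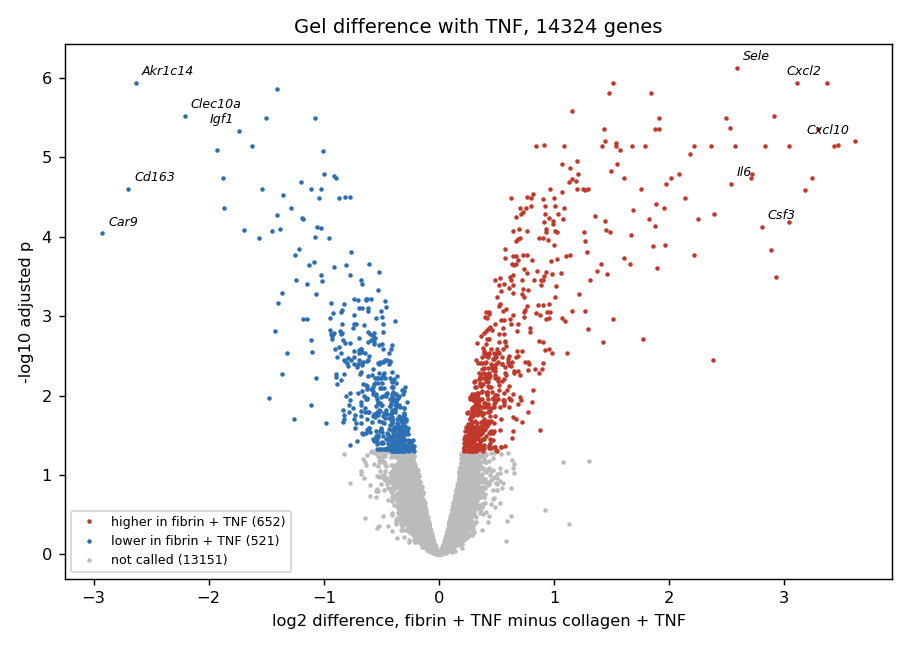
Log2 difference of fibrin TNF minus collagen TNF (x axis) against -log10 of the limma adjusted p (y axis), 1 point per gene, n = 3 arrays per group. The 652 genes higher in fibrin TNF reach a difference of 3.61 (Cxcl10), and the 521 lower genes reach -2.92 (Car9).

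Promoter sequences of 5 of the genes with the largest increases are shown because they hold a match to the interferon-response element. The element was searched for as GAAANNGAAA or its reverse complement TTTCNNTTTC, in a window from 250 bases before to 50 bases after each gene's start, in RefSeq sequence of build GRCr8. The letters in capitals mark the matches, and in the Gbp5 window also matches to an NF-kB motif, GGGANTTTC or GAAANTCCC on the other strand. No match of one motif overlapped a match of the other in these windows. The window of Cxcl10 is chr14:15988816-15989115 (plus strand) and its match ends 234 bases before the start. That of Rsad2 is chr6:48788071-48788370 (minus strand), with the match ending 138 bases before the start. That of Ifit3 is chr1:241527076-241527375 (plus strand, 35 bases before). That of Gbp5 is chr2:233910749-233911048 (plus strand, 47 bases before), and that of Ifi44l is chr2:243328473-243328772 (plus strand), with matches ending 82 and 50 bases before the start.
Cxcl10: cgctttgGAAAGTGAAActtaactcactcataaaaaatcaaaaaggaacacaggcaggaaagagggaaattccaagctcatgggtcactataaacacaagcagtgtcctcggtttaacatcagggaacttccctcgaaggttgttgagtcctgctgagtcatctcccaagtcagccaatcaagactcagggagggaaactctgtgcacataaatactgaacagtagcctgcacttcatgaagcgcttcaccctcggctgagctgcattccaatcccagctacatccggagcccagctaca
Rsad2: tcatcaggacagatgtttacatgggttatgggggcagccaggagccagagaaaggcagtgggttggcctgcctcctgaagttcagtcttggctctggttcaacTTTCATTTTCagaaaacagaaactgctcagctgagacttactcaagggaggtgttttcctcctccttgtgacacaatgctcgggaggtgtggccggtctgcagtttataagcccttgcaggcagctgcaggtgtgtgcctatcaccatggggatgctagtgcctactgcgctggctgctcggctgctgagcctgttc
Ifit3: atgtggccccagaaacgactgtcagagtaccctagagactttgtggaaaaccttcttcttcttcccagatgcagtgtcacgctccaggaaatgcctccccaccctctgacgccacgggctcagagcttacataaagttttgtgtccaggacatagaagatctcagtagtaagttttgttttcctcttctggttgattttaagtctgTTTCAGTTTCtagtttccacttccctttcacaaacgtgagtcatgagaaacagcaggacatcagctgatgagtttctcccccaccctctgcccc
Gbp5: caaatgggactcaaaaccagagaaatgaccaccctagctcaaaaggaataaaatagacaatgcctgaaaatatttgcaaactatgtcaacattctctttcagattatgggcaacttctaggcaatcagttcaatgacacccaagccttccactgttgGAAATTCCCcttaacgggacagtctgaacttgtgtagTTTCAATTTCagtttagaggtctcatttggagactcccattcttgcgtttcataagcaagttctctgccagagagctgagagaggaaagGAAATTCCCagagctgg
Ifi44l: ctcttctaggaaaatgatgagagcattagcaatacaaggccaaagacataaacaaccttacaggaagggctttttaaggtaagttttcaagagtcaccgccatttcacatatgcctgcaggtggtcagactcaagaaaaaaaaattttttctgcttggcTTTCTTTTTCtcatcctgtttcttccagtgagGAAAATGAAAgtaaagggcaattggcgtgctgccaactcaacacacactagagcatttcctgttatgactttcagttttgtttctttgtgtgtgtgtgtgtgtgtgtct

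A promoter window was at hand for 11805 of the 14324 genes, and 3.41% of these held the interferon element. The share was 12.3% (65 of 530 windows) among genes higher in fibrin TNF and 1.96% (8 of 408) among genes lower. It was 32.9% (27 of 82) among those higher by more than 1 and 8.33% (3 of 36) among those lower by more than 1, and 69.0% (20 of 29) over the measured interferon-stimulated effectors whatever their result. The NF-kB motif was rarer, at 1.27% of all windows, 3.58% of those of higher genes and 0.49% of those of lower genes. These are counts of letters in a short window: the windows of Mx1, Cmpk2, Cxcl11, Herc6 and Oasl, all genes with large increases, held no match, and those of the lower genes Akr1c14 and Clec4d held 1 each.

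Interferon-stimulated effectors stood highest in fibrin. Of 41 measured genes of this list, 39 (95.1%) were called higher in fibrin TNF, 1 was lower and 1 was not called, with a median log2 difference of 1.58 against -0.004 over all genes. The mean level of the list was 9.36 to 9.91 on the fibrin TNF arrays and 7.72 to 8.06 on the collagen TNF arrays. The counts moved little under the alternatives, with 38 to 40 members higher. The exception to the direction was Ifitm1, a membrane protein that restricts virus entry, which was lower (-0.45 ± 0.11, limma adjusted p = 0.0299; it was singled out after its values were seen), and it lost its call without replicate 1 or 3 of either group. Ifitm3, its neighbour in the family, had levels of 13.30, 13.29 and 13.26 in fibrin TNF and 13.18, 13.12 and 13.02 in collagen TNF and was not called (0.17 ± 0.07, adjusted p = 0.140).

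Rsad2, which encodes the antiviral enzyme viperin, had levels of 12.45, 11.74 and 12.58 on fibrin TNF replicates 1 to 3, against 9.21, 8.19 and 8.97 on collagen TNF replicates 1 to 3. Every fibrin array was above every collagen array, and the difference was 3.46 ± 0.27 (adjusted p = 6.94e-06). Mx1, an antiviral GTPase, had levels of 11.55, 11.04 and 11.83 in fibrin TNF and 8.41, 7.76 and 7.94 in collagen TNF, a 10.8-fold difference (3.43 ± 0.27, adjusted p = 7.20e-06). Its paralogue Mx2 differed by 2.88 ± 0.34 (adjusted p = 1.49e-04), and probes of such near-identical copies may be shared. Isg15, a ubiquitin-like protein joined to other proteins during the interferon response, had levels of 11.90, 10.97 and 11.87 in fibrin TNF and 8.65, 8.0 and 8.38 in collagen TNF (3.24 ± 0.29, adjusted p = 1.82e-05). Usp18, the protease that removes ISG15 and dampens the receptor, differed by 3.04 ± 0.32, and Herc6, a ligase of the same pathway, by 3.11 ± 0.18.

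The nucleotide kinase Cmpk2, which lies next to Rsad2, differed by 3.30 ± 0.24 and was at 11.26, 10.30 and 11.31 in fibrin TNF against 8.0, 7.31 and 7.68 in collagen TNF. Oasl, a relative of the enzymes that make the RNase L activator, differed by 3.04 ± 0.24, Ifit3, which binds viral RNA complexes, by 2.93 ± 0.38, and Ifi44l by 2.83 ± 0.22. Gbp5, a guanylate-binding GTPase that responds to interferon gamma as well, was at 11.56, 10.88 and 11.89 in fibrin TNF and at 8.76, 8.33 and 8.53 in collagen TNF (2.91 ± 0.19, adjusted p = 3.05e-06). None of these genes had overlapping arrays. The spread within groups was shared between genes: of the 39 higher effectors, 37 had their lowest fibrin TNF level on replicate 2 and 35 had their lowest collagen TNF level on replicate 2.

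**Figure D2:**
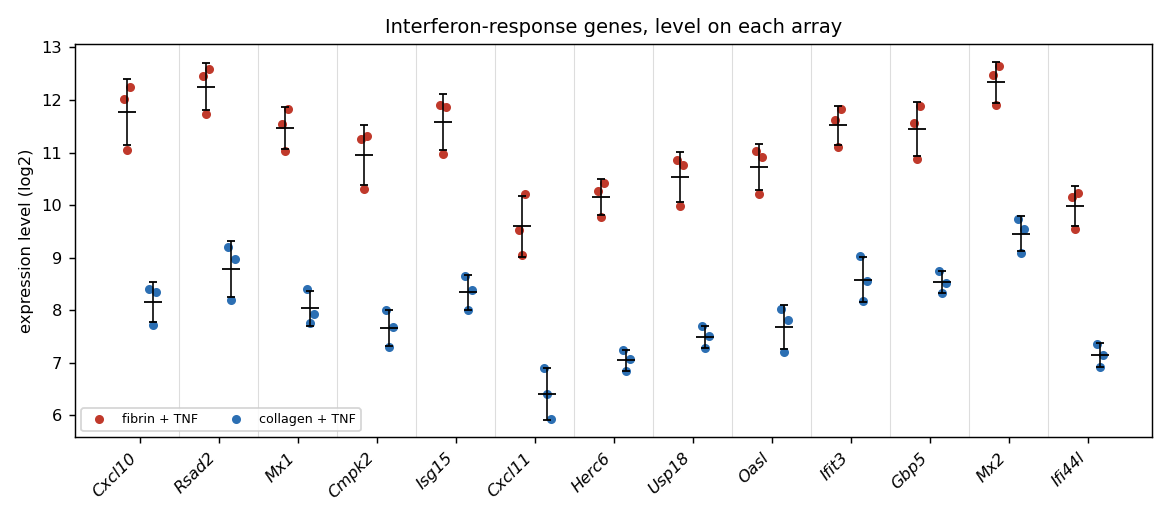
Log2 expression level of 13 interferon-response genes on each array, fibrin TNF left of collagen TNF; bars give the mean and SD of 3 arrays. For every gene shown the fibrin TNF points lie above the collagen TNF points, and the middle point of each triplet, replicate 2, is usually the lowest.

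Transcription factors of this response were partly higher. Of 26 measured interferon transcription factors, sensors and ligands, 8 were higher and 0 lower in fibrin TNF (median 0.19). Irf7 stood far above the others, at 11.46, 10.96 and 11.32 in fibrin TNF against 8.76, 8.22 and 8.60 in collagen TNF, a 6.58-fold difference (2.72 ± 0.24, adjusted p = 1.64e-05). Stat2 (1.13 ± 0.10) and Irf9 (1.07 ± 0.09), subunits of the factor that binds the interferon element, were higher with no overlap of arrays. Irf1 (0.65 ± 0.09), an early factor of both interferon and NF-kB responses, and Tlr3 (0.63 ± 0.11), a receptor for double-stranded RNA, were also higher. Stat3 (0.11 ± 0.07), Ifngr1 (0.14 ± 0.07) and Jak1 (-0.10 ± 0.09), parts of the signalling pathway, were not called. The ligand genes Ifnb1 and Ifng, singled out after their values were seen, had levels of 2.96 to 3.75 and 2.94 to 3.55 in fibrin TNF and of 3.33 to 3.63 and 3.08 to 3.10 in collagen TNF. Their groups overlapped, and neither was called (-0.14 ± 0.18, adjusted p = 0.705, and 0.22 ± 0.14, adjusted p = 0.385). These levels lay far below the array medians of 5.91 to 5.97, so the probe sets may not have detected the transcripts. The values therefore cannot show whether the ligands differed between the gels.

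Genes of class I antigen presentation were among those higher in fibrin. Of 25 measured genes of antigen processing and presentation, 14 were higher and 1 was lower (median 0.27). The class I gene RT1-S3 had levels of 11.45, 11.12 and 11.25 in fibrin TNF and 9.92, 9.59 and 9.71 in collagen TNF (1.54 ± 0.12, adjusted p = 7.20e-06); RT1 genes have near-identical copies and are uncertain as single genes. The immunoproteasome subunits Psmb8 (1.26 ± 0.14) and Psmb9 (0.92 ± 0.09), the peptide transporter Tap1 (1.15 ± 0.07) and its partner Tapbp (0.86 ± 0.12) were higher. RT1-DMa, which loads peptides onto class II molecules, was the exception (-0.43 ± 0.09, adjusted p = 0.0136; singled out after its values were seen), and it lost its call without fibrin TNF replicate 1 or collagen TNF replicate 3. Cd74, the class II invariant chain, was at 7.75, 8.0 and 7.39 in fibrin TNF and 8.01, 8.41 and 8.18 in collagen TNF and was not called (-0.49 ± 0.28, adjusted p = 0.330).

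Most CXC chemokines were higher in fibrin TNF. Of 14 measured, 9 (64.3%) were higher in fibrin TNF and 1 was lower (median 0.84). Cxcl10, which attracts T cells through CXCR3 and is induced by interferon and TNF, had the largest difference of all genes: 12.02, 11.05 and 12.24 in fibrin TNF, against 8.40, 7.73 and 8.35 in collagen TNF. This is 12.2-fold (3.61 ± 0.27, adjusted p = 6.35e-06). Cxcl11 (3.18 ± 0.30) and Cxcl9 (2.39 ± 0.25), ligands of the same receptor, were higher too.

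The neutrophil-attracting ligands of CXCR2 were also higher in fibrin. Cxcl2 had levels of 9.10, 8.64 and 8.43 in fibrin TNF and 5.55, 5.32 and 5.19 in collagen TNF, 10.4-fold apart (3.37 ± 0.19, adjusted p = 1.18e-06). Cxcl1 had 11.16, 10.85 and 10.46 in fibrin TNF and 8.64, 8.69 and 8.90 in collagen TNF (2.08 ± 0.18, adjusted p = 1.61e-05). Cxcl6 spread more, at 9.45, 9.34 and 7.85 in fibrin TNF against 6.87, 6.30 and 6.35 in collagen TNF (2.38 ± 0.42, adjusted p = 0.00354), with fibrin TNF replicate 3 far below the other 2. The stromal chemokine Cxcl12, which holds progenitor cells and lymphocytes through CXCR4, went the other way (singled out after its values were seen). It had 9.13, 9.59 and 9.41 in fibrin TNF and 10.79, 10.69 and 10.88 in collagen TNF (-1.41 ± 0.15, adjusted p = 5.32e-05). The B cell attractant Cxcl13 was at 13.17 to 13.37 in fibrin TNF and 12.70 to 13.05 in collagen TNF, and was not called (0.35 ± 0.17, adjusted p = 0.251).

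Of 20 measured CC and other chemokines, 6 were higher and 4 lower (median 0.07), so members of the family went both ways. Ccl5, a T cell and monocyte attractant, had 10.03, 9.02 and 9.58 in fibrin TNF against 6.80, 7.12 and 6.99 in collagen TNF (2.57 ± 0.20, adjusted p = 7.15e-06). Ccl3 (1.97 ± 0.18) and Ccl4 (1.96 ± 0.20), inflammatory chemokines of macrophages, were higher by nearly the same amount. Ccl22, a ligand of CCR4, was higher (1.11 ± 0.19). Ccl6, which attracts macrophages in rodents, was lower, at 5.97, 6.26 and 5.79 in fibrin TNF and 7.09, 7.12 and 7.78 in collagen TNF (-1.32 ± 0.23, adjusted p = 0.00295). Ccl21, made by lymphatic endothelium, was lower (-1.43 ± 0.23, adjusted p = 0.00153). Of 6 lymphatic endothelial markers, Ccl21 among them, 3 were lower and 0 higher (median -0.47; 4 lower and 0 higher at an unadjusted p below 0.05), or 2 lower without fibrin TNF replicate 1 or collagen TNF replicate 1; their part in the result was not tested. Of the 20 CC and other chemokines, 2 were lower without fibrin TNF replicate 3 or collagen TNF replicate 3. Ccl2, a monocyte attractant, was at 13.41, 13.13 and 13.20 in fibrin TNF and 12.86, 12.66 and 12.73 in collagen TNF. It was not called (0.50 ± 0.18, adjusted p = 0.127), although its arrays did not overlap, and it was called when only the 6 TNF arrays were fitted.

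Of 40 interleukins, colony-stimulating factors and related genes, 12 were higher and 3 lower in fibrin TNF (median 0.04), or 5 lower without fibrin TNF replicate 2. Csf3, which drives neutrophil production, had 8.31, 7.99 and 7.55 in fibrin TNF and 5.29, 5.18 and 4.97 in collagen TNF (2.80 ± 0.30, adjusted p = 7.47e-05). Il6 had 10.56, 10.07 and 10.19 in fibrin TNF and 7.53, 7.92 and 7.76 in collagen TNF, 5.80-fold apart (2.54 ± 0.23, adjusted p = 2.16e-05). Both interleukin-1 genes were higher, Il1b by 1.89 ± 0.19 and Il1a by 1.86 ± 0.22. Lif, a relative of IL-6 (1.45 ± 0.16), and Il10, a cytokine that restrains macrophages (1.27 ± 0.15), were higher as well. The shared receptor chain Il6st had levels of 12.01 to 12.16 in fibrin TNF and 12.13 to 12.26 in collagen TNF and was not called (-0.09 ± 0.07, adjusted p = 0.456).

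NF-kB subunits, regulators and feedback genes were higher in part. Of 23 measured, 12 were higher and 0 lower (median 0.32). The feedback genes led: Zc3h12a, an RNase that degrades cytokine messages, differed by 1.14 ± 0.10, Birc3, a survival protein of the TNF receptor complex, by 0.99 ± 0.11, and Nfkbia, which holds NF-kB in the cytoplasm, by 0.85 ± 0.07. Nfkbia had 11.62, 11.48 and 11.62 in fibrin TNF and 10.70, 10.70 and 10.78 in collagen TNF (adjusted p = 7.15e-06). The subunits Rela (0.15 ± 0.07, adjusted p = 0.234) and Nfkb1 (0.18 ± 0.07, adjusted p = 0.120) were not called.

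Of 23 measured TNF ligands and receptors, 7 were higher and 1 lower in fibrin TNF, or 4 higher without collagen TNF replicate 3 and 0 lower without fibrin TNF replicate 3 or collagen TNF replicate 2. Tnfsf10, which encodes the death ligand TRAIL and responds to interferon, had 7.23, 6.22 and 7.65 in fibrin TNF against 4.98, 4.62 and 4.86 in collagen TNF (2.21 ± 0.26, adjusted p = 1.69e-04). The second TNF receptor Tnfrsf1b was higher (0.73 ± 0.11) and the main one, Tnfrsf1a, had 10.66 to 10.76 in fibrin TNF and 10.66 to 10.77 in collagen TNF (-0.01 ± 0.07, adjusted p = 0.954). Tnf itself overlapped between the gels, at 6.66 to 6.97 in fibrin TNF and 6.32 to 6.82 in collagen TNF (0.19 ± 0.16, adjusted p = 0.540). The pattern-recognition list had 6 of 22 members higher and 1 lower (8 higher and 6 lower at an unadjusted limma p below 0.05). The lower count was 2 without fibrin TNF replicate 1 or collagen TNF replicate 2, and 3 with a trended robust prior. Its higher members were led by Acod1, the itaconate-producing enzyme of activated macrophages (1.46 ± 0.19), and the inflammasome caspases Casp4 (1.11 ± 0.13) and Casp1 (1.06 ± 0.14).

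Among 12 endothelial adhesion molecules for leukocytes, 4 were higher and 0 lower (4 higher and 2 lower at an unadjusted p below 0.05), and E-selectin led. The counts were 2 higher and 0 lower without fibrin TNF replicate 1 and 2 higher and 1 lower without collagen TNF replicate 2. Sele, which lets leukocytes roll on activated endothelium, had 8.18, 8.41 and 8.35 in fibrin TNF against 5.54, 5.84 and 5.79 in collagen TNF. The groups were 6.02-fold apart with a small spread (2.59 ± 0.13), and the adjusted p of 7.62e-07 was the smallest given here. Vcam1 was higher by 0.72 ± 0.07 (12.94, 12.96 and 13.03 in fibrin TNF; 12.17, 12.33 and 12.28 in collagen TNF; adjusted p = 5.25e-05). Icam1 (0.33 ± 0.08, adjusted p = 0.0290) and Selp (0.67 ± 0.16, adjusted p = 0.0195) were the other called members. Both lost their call, at adjusted p of up to 0.120 and 0.0821, without fibrin TNF replicate 1 or collagen TNF replicate 2, and Icam1 also without fibrin TNF replicate 3 or collagen TNF replicate 1, Selp also without fibrin TNF replicate 2 or collagen TNF replicate 3. Of 20 general endothelial markers, 0 were called by limma (1 higher and 4 lower at an unadjusted p below 0.05, and at most 1 higher and 2 lower under the alternatives). Tie1 had 10.03 to 10.42 in fibrin TNF and 10.38 to 10.55 in collagen TNF (-0.25 ± 0.11, adjusted p = 0.223).

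**Figure D3:**
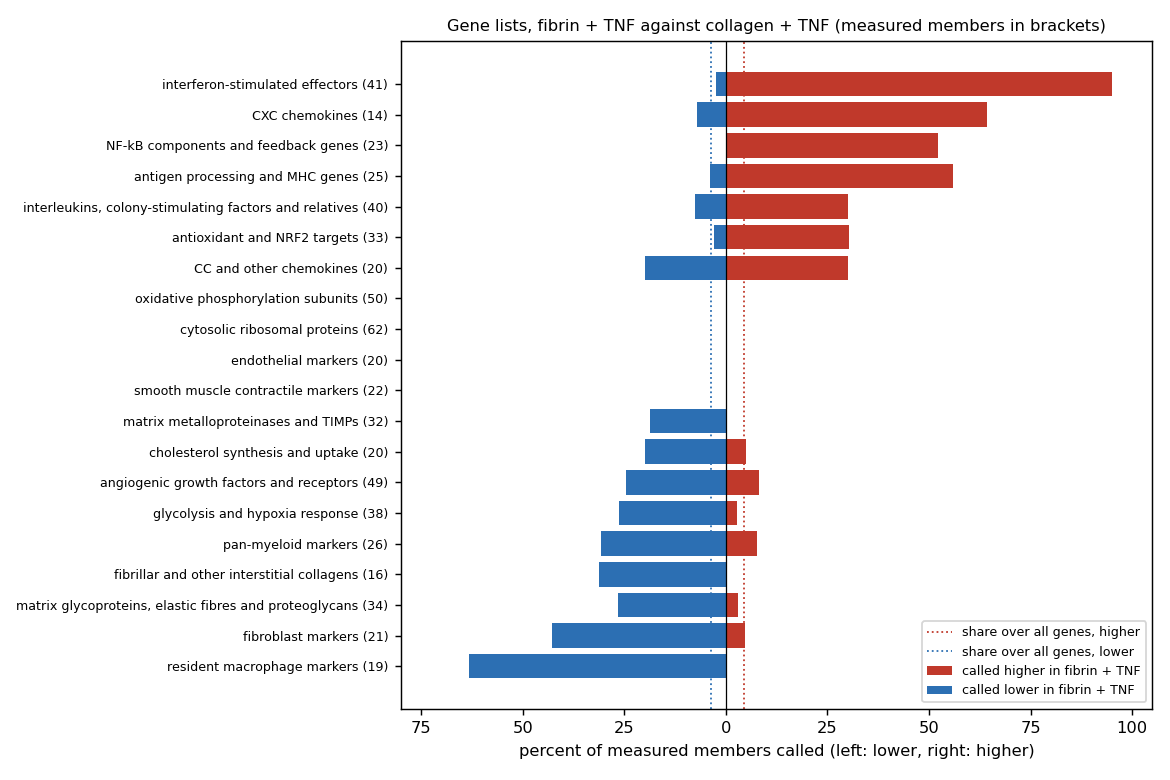
Share of the measured members of 20 gene lists called higher (right, red) or lower (left, blue) in fibrin TNF than in collagen TNF by limma at an adjusted p below 0.05; dotted lines mark the shares over all genes (4.55% higher, 3.64% lower). Interferon-stimulated effectors reach 95.1% higher and resident macrophage markers 63.2% lower.

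Macrophage receptors were lower in fibrin TNF. Of 19 markers of resident tissue macrophages, 12 (63.2%) were lower and 0 higher (median -0.75; 0 members were higher at an unadjusted p below 0.05), and 12 were lower under every alternative run. The mean level of the list was 6.75 to 6.95 on the fibrin TNF arrays and 7.58 to 7.83 on the collagen TNF arrays. Cd163, the haemoglobin-haptoglobin receptor, had 5.15, 6.32 and 5.70 in fibrin TNF against 8.31, 8.11 and 8.83 in collagen TNF, 6.49-fold lower (-2.70 ± 0.25, adjusted p = 2.51e-05). Mrc1, the mannose receptor, had 7.50, 8.12 and 8.01 in fibrin TNF and 9.73, 9.52 and 9.98 in collagen TNF (-1.87 ± 0.19, adjusted p = 4.38e-05). Clec10a, a galactose lectin, was lower by 2.21 on the log2 scale (-2.21 ± 0.15), and F13a1, the transglutaminase subunit that cross-links fibrin and is made by macrophages, had a difference of -1.88 ± 0.17. Lyve1, shared with lymphatic endothelium, had -1.21 ± 0.14 and the complement subunit C1qc -1.29 ± 0.13. Arrays of the gels did not overlap for any of these.

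The other 7 genes of the list were not called, and their arrays overlapped. Fcgrt, the neonatal Fc receptor, had 10.85 to 10.92 in fibrin TNF and 10.81 to 10.97 in collagen TNF (0.00 ± 0.07, adjusted p = 0.987). Ms4a7 had 0.06 ± 0.12 and Siglec1 -0.22 ± 0.13. Of 26 pan-myeloid markers, 8 were lower and 2 higher, or 1 higher without fibrin TNF replicate 1 or 3 or collagen TNF replicate 2 or 3. Csf1r, the receptor on which macrophages depend, had 8.30, 8.37 and 8.39 in fibrin TNF and 9.35, 9.04 and 9.41 in collagen TNF (-0.91 ± 0.11, adjusted p = 2.40e-04), and Lyz2 (-0.82 ± 0.08) and Laptm5 (-1.13 ± 0.14) were lower. The Fc receptor Fcgr3a was higher (0.84 ± 0.16, adjusted p = 0.00462), while Cd14 (-0.30 ± 0.10, adjusted p = 0.0956) and Fcer1g (-0.20 ± 0.11, adjusted p = 0.299) were not called. Among the 15 largest decreases were further genes linked to myeloid cells, Ms4a6bl1 (-1.50 ± 0.10), the lysophospholipid receptor Gpr34 (-1.45 ± 0.16) and the C-type lectin Clec4d (-1.47 ± 0.31, adjusted p = 0.0108, but 0.0526 without fibrin TNF replicate 3). Alox5ap (-1.25 ± 0.16) and Alox5 (-0.83 ± 0.16), the protein pair that starts leukotriene synthesis, were lower. So was Hpgds, a prostaglandin D synthase (-1.14 ± 0.17). Their list of prostaglandin and leukotriene synthesis went both ways. Of its 26 measured genes, 5 were lower and 3 higher (median 0.03), with 1 to 4 higher under the alternatives. At an unadjusted limma p below 0.05, 5 were lower and 6 higher.

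Markers of other blood cells were called in small numbers. Of 21 T and natural killer cell markers, 2 (9.52%) were higher and 0 lower, against 4.55% and 3.64% over all genes. Their mean level was 4.52 to 4.65 in fibrin TNF and 4.51 to 4.57 in collagen TNF. Klrk1, an activating receptor of natural killer and T cells (0.94 ± 0.14), and the interleukin-7 receptor Il7r (0.89 ± 0.17) were the 2. Of 17 neutrophil markers, Lcn2 was the 1 higher (5.88%) and 0 were lower, and their mean level was 4.65 to 4.78 in fibrin TNF and 4.60 to 4.64 in collagen TNF. Mean levels of both lists lay below the array medians of 5.91 to 5.97, so some of these transcripts may not have been detected. Among 7 B cell markers 1 was lower, and 1 of 10 mast cell and 1 of 6 platelet and megakaryocyte markers were higher. Each of these 3 counts fell to 0 in some alternatives. None of 9 erythroid markers was called, nor any at an unadjusted p below 0.05, but Hbb, a haemoglobin gene, was at 8.42 on fibrin TNF replicate 3 against 6.36 and 6.01 on the other fibrin TNF arrays and 5.95, 5.98 and 6.10 on the collagen TNF arrays. The part of cell content in the chemokine, cytokine and interferon differences was not tested.

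Part of the glycolysis and hypoxia genes was lower in fibrin TNF. Of 38 measured, 10 (26.3%) were lower and 1 (2.63%) higher, against 3.64% and 4.55% over all genes (median -0.25). All 3 fibrin TNF arrays lay below all 3 collagen TNF arrays for 27 of the 38, and for 12.9% of all genes. The number lower was 6 without fibrin TNF replicate 3, collagen TNF replicate 2 or collagen TNF replicate 3. It was 14 without the dimmest genes, 15 with a trended robust prior and 17 with the replicate number as a block. Car9, a carbonic anhydrase of the cell surface that hypoxia-inducible factor switches on, had the largest decrease of all genes: 6.28, 6.80 and 6.38 in fibrin TNF against 9.11, 9.43 and 9.69 in collagen TNF, 7.59-fold (-2.92 ± 0.33, adjusted p = 9.13e-05). The kinase Pdk1, which diverts pyruvate from mitochondria, had 8.45, 8.83 and 8.63 in fibrin TNF and 9.25, 9.44 and 9.42 in collagen TNF (-0.73 ± 0.11, adjusted p = 9.62e-04). The glycolytic aldolase Aldoc (-0.81 ± 0.14) and the stress gene Ndrg1 (-0.68 ± 0.12) were lower. The glucose transporter Slc2a3 was lower (-0.66 ± 0.17, adjusted p = 0.0306) but lost its call, at an adjusted p of up to 0.120, without replicates 1 or 3 of fibrin TNF or replicates 2 or 3 of collagen TNF. The exception was Hif1a, the oxygen-sensing factor itself, which was higher by 0.29 (singled out after its values were seen) and lost its call without fibrin TNF replicate 3 or collagen TNF replicate 1 or 2. The glycolytic enzyme genes Gapdh (-0.12 ± 0.06), Aldoa (-0.11 ± 0.06) and Ldha (-0.24 ± 0.07, adjusted p = 0.0575), were not called. Of 50 subunits of oxidative phosphorylation, 0 were called by limma (2 higher and 0 lower at an unadjusted p below 0.05).

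Angiogenic growth factors and receptors differed in both directions. Of 49 measured, 12 were lower and 4 higher in fibrin TNF (median -0.24). The counts were 5 lower and 2 higher without fibrin TNF replicate 1, 6 and 2 without collagen TNF replicate 3, and 6 lower without collagen TNF replicate 1. The growth factor Igf1 had 7.21, 7.08 and 6.73 in fibrin TNF against 8.71, 8.64 and 8.87 in collagen TNF, 3.33-fold lower (-1.74 ± 0.13, adjusted p = 4.65e-06). Its binding protein Igfbp3 averaged 9.84 ± 0.29 in fibrin TNF and 11.03 ± 0.05 in collagen TNF (SD, n = 3 each), with no overlap (-1.19 ± 0.12, adjusted p = 5.81e-05). The Notch ligand Dll4, a marker of endothelial tip cells, had 7.55, 7.78 and 7.44 in fibrin TNF and 8.19, 8.46 and 8.34 in collagen TNF (-0.74 ± 0.10, adjusted p = 6.16e-04), and the peptide Apln, also made by tip cells, was lower (-0.62 ± 0.10, adjusted p = 0.00214).

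Ligands of the Tie2 receptor and the main VEGF gene were less clear. Angpt1, the Tie2 agonist, was lower, at 7.77, 8.10 and 8.06 in fibrin TNF and 8.45, 8.32 and 8.80 in collagen TNF (-0.55 ± 0.12, adjusted p = 0.0134); the call was lost without fibrin TNF replicate 1 or collagen TNF replicate 3, at an adjusted p of up to 0.0631. Angpt2, its antagonist, was not called (-0.13 ± 0.07, adjusted p = 0.357). Vegfa had 8.46, 8.56 and 8.43 in fibrin TNF and 8.70, 8.87 and 9.16 in collagen TNF; the arrays did not overlap, but the difference was not called (-0.42 ± 0.15, adjusted p = 0.124). On the higher side were Igfbp5 (0.69 ± 0.15, adjusted p = 0.0129, up to 0.0635 without fibrin TNF replicate 1 or collagen TNF replicate 3) and Hgf, which drives epithelial and endothelial migration (0.64 ± 0.17, adjusted p = 0.0337). Hgf lost its call, at an adjusted p of up to 0.137, without any 1 of the fibrin TNF replicates or without collagen TNF replicate 3. The placental growth factor Pgf (0.59 ± 0.09, adjusted p = 8.04e-04) and the receptor Fgfr2 (0.53 ± 0.10) were the other 2, singled out after their values were seen.

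**Figure D4:**
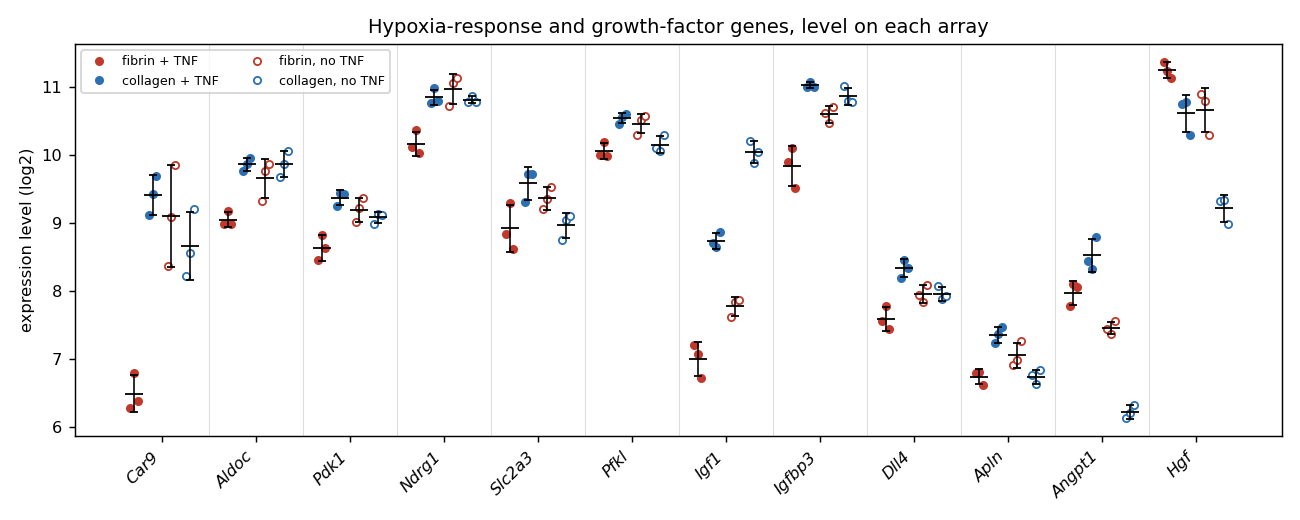
Log2 expression level of 6 hypoxia or glycolysis genes and 6 growth-factor or Notch-ligand genes on each array, in the order fibrin TNF, collagen TNF, fibrin control, collagen control; bars give the mean and SD of 3 arrays. Car9 is lowest on the 3 fibrin TNF arrays (6.28 to 6.80), while Hgf is highest on them (11.14 to 11.37).

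Some genes of the rings' own matrix were lower. Of 16 interstitial collagens, 5 were lower and 0 higher in fibrin TNF (median -0.22; 9 lower and 0 higher at an unadjusted p below 0.05), and all 5 had their lowest fibrin TNF level on replicate 1. Col3a1, the collagen III chain, had 11.28, 11.65 and 11.69 in fibrin TNF against 12.20, 12.13 and 12.31 in collagen TNF (-0.67 ± 0.12, adjusted p = 0.00418). Col14a1 (-0.82 ± 0.12), Col12a1 (-0.84 ± 0.14) and Col5a1 (-0.48 ± 0.09), which associate with or nucleate fibrils, were lower. The collagen I chains were not called: Col1a1 overlapped (12.27 to 12.65 in fibrin TNF, 12.57 to 12.78 in collagen TNF; -0.21 ± 0.13, adjusted p = 0.374) and Col1a2 had -0.24 ± 0.09 (adjusted p = 0.148). Of 20 collagen-processing enzymes, 5 were lower and 0 higher (6 and 0 at an unadjusted p below 0.05), but 0 were lower without fibrin TNF replicate 1 or collagen TNF replicate 3, 1 without collagen TNF replicate 1, and 2 without any other 1 of these replicates. Of 34 matrix glycoproteins and proteoglycans, 9 were lower and 1 higher, or 4, 3 and 4 lower without fibrin TNF replicate 1, collagen TNF replicate 1 and collagen TNF replicate 3, and 5 with median centring. Mfap5, a microfibril protein of fibroblasts (-0.91 ± 0.08, adjusted p = 1.74e-05), and the proteoglycan Ogn (-0.47 ± 0.08) led these.

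Of 21 fibroblast markers, 9 were lower and 1 higher, or 5 and 4 lower without fibrin TNF replicate 1 and without collagen TNF replicate 1. Cygb, a globin of fibroblasts and stellate cells, had 7.30, 7.15 and 6.84 in fibrin TNF and 8.18, 8.03 and 8.14 in collagen TNF (-1.02 ± 0.13, adjusted p = 3.65e-04). The small proteoglycan Dcn was not called (-0.04 ± 0.06, adjusted p = 0.784), and the higher member was Ly6c (1.90 ± 0.24). Tgfbi, a TGF-beta-induced matrix protein, had 8.30, 8.46 and 8.35 in fibrin TNF against 9.86, 9.79 and 9.69 in collagen TNF (-1.41 ± 0.08, adjusted p = 1.38e-06). The ligand Tgfb3 (-0.83 ± 0.15) and the co-receptor Tgfbr3 (-0.77 ± 0.13) were lower, whereas Tgfb1 (-0.16 ± 0.07, adjusted p = 0.197) was not called. Of 34 genes of TGF-beta and BMP signalling, 5 (14.7%) were lower and 2 (5.88%) higher, against 3.64% and 4.55% over all genes. The lower count was 3 without fibrin TNF replicate 1, collagen TNF replicate 2 or collagen TNF replicate 3. The higher count, near the share over all genes, was 1 without fibrin TNF replicate 1 or 2 or collagen TNF replicate 3. Of 22 smooth muscle contractile markers 0 were called by limma (1 higher and 4 lower at an unadjusted p below 0.05), with Myh11, the smooth muscle myosin heavy chain, at 9.97 to 10.25 in fibrin TNF and 10.30 to 10.41 in collagen TNF (-0.24 ± 0.12, adjusted p = 0.281).

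In the joint list of metalloproteinases, which cells use to cross a gel, and their inhibitors, all called members were lower. Mmp3, Mmp9, Mmp13 and Mmp14 were not among the called members. Of 32 metalloproteinases and their inhibitors, 6 (18.8%) were lower and 0 higher (12 lower and 2 higher at an unadjusted p below 0.05), or 3 lower without collagen TNF replicate 3 and 1 higher without collagen TNF replicate 1. Mmp3 had 11.99, 11.96 and 11.52 in fibrin TNF and 11.49, 11.51 and 11.49 in collagen TNF (0.33 ± 0.20, adjusted p = 0.394). Mmp9 overlapped (0.03 ± 0.18, adjusted p = 0.946), and Mmp13, the rodent interstitial collagenase, had -0.78 ± 0.28 (adjusted p = 0.125). Mmp14, the membrane protease that cleaves both collagen and fibrin, overlapped, at 12.37 to 12.46 in fibrin TNF and 12.45 to 12.57 in collagen TNF (-0.08 ± 0.06, adjusted p = 0.493). The inhibitor Timp3, the only called member named here, was lower (-0.79 ± 0.15, adjusted p = 0.00430).

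Of 29 plasminogen activators and clotting regulators, 4 were higher and 3 lower. The urokinase gene Plau (-0.41 ± 0.15, adjusted p = 0.112) and the tissue activator gene Plat (-0.10 ± 0.11, adjusted p = 0.654) were not called. Tfpi2, an inhibitor of plasmin and of tissue factor, had 10.60, 9.98 and 10.18 in fibrin TNF and 9.01, 8.78 and 8.70 in collagen TNF (1.42 ± 0.24, adjusted p = 0.00213). Thbd, the endothelial thrombin receptor that starts protein C activation (0.95 ± 0.16), and F10, coagulation factor X (1.09 ± 0.11), were higher. Of 17 integrins 4 were higher and 1 lower (4 higher and 4 lower at an unadjusted limma p below 0.05). The lower count was 0 without fibrin TNF replicate 3 or collagen TNF replicate 2 or 3, and 4 with the replicate number as a block. Itga2, part of a collagen receptor, was higher in fibrin (0.67 ± 0.12, adjusted p = 0.00327), and Itgb1, its partner, was at 12.65 to 12.79 in fibrin TNF and 12.66 to 12.75 in collagen TNF (0.02 ± 0.06, adjusted p = 0.910).

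Some genes of nitric oxide synthesis and of defence against oxidants were higher in fibrin. Nos2, the inducible synthase, had 9.78, 9.91 and 10.21 in fibrin TNF against 8.16, 8.30 and 8.61 in collagen TNF, 3.05-fold (1.61 ± 0.14, adjusted p = 1.82e-05). Gch1, which makes its cofactor (1.01 ± 0.14), and Slc7a2, which imports arginine (0.75 ± 0.13), were the other 2 higher members. Of the 19 genes of this list 3 were higher and 1 lower (median -0.08). With quantile normalization, a trended prior or without the dimmest genes 4 were higher and 4 lower, with median centring 5 were higher and 1 lower, with only the groups compared 3 and 3, with the replicate block 4 and 3, and the lower count was 2 without fibrin TNF replicate 2 and 0 without collagen TNF replicate 3. Nos3, the endothelial synthase, had -0.24 ± 0.11 (adjusted p = 0.237). Of 33 antioxidant genes and targets of NRF2, 10 were higher and 1 lower (median 0.19). The cystine importer Slc7a11 had 10.40, 10.26 and 10.59 in fibrin TNF and 8.92, 8.90 and 8.99 in collagen TNF (1.48 ± 0.09, adjusted p = 1.57e-06). The quinone reductase Nqo1 (1.22 ± 0.17), the glutathione transferase Gstm1 (0.82 ± 0.08) and the thioredoxin reductase Txnrd1 (0.63 ± 0.06) were higher. Hmox1, the haem-degrading enzyme, overlapped (11.89 to 12.10 in fibrin TNF, 11.32 to 11.95 in collagen TNF; 0.33 ± 0.15, adjusted p = 0.205).

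Among the largest decreases outside these groups, Akr1c14, a hydroxysteroid dehydrogenase, had 6.63, 7.26 and 6.87 in fibrin TNF against 9.68, 9.47 and 9.50 in collagen TNF, 6.20-fold lower (-2.63 ± 0.15, adjusted p = 1.18e-06). The Akr1c family has near-identical copies, so this gene is uncertain as a single one. Sult1a1, a phenol sulfotransferase (-1.69 ± 0.19), Aldh3a1, an aldehyde dehydrogenase (-1.36 ± 0.13), Tmem178a (-1.92 ± 0.15) and the growth-cone protein Gap43 (-1.62 ± 0.13) were lower. So were Agtr1a, the receptor of angiotensin II (-1.56 ± 0.18), and Trpc5, a calcium-permeable channel (-1.54 ± 0.14). The growth arrest gene Cdkn1a was the 1 higher cell cycle gene of 35 (0.86 ± 0.11, adjusted p = 2.73e-04), and 1 was lower, or 0 without fibrin TNF replicate 1 or collagen TNF replicate 1 or 3. Of 62 cytosolic ribosomal protein genes, 0 were called by limma (0 higher and 1 lower at an unadjusted p below 0.05).

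The gel difference under TNF was then set against the gel difference without TNF, fibrin control minus collagen control, which uses other arrays. Without TNF, 5.35% of genes were higher and 5.19% lower in fibrin. Of the 652 genes higher in fibrin TNF, 332 were also higher in fibrin control (50.9% of the calls with TNF and 43.3% of the calls without). Of the 521 lower genes, 231 were also lower in fibrin control (44.3% and 31.1%). A test of the difference between the 2 gel differences called 53 genes (0.37%) as more positive with TNF and 124 (0.866%) as more negative. The median standard error of this difference was 0.13. The total of 177 was 117, 103 and 112 without collagen TNF replicate 1, collagen TNF replicate 2 and fibrin control replicate 2. The 124 were 81 and 82 without collagen TNF replicate 2 and fibrin control replicate 2. The 53 were 22 to 33 without any 1 of the collagen TNF replicates, fibrin control replicates 1 and 2 or collagen control replicate 2.

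Interferon-stimulated effectors were higher in fibrin with and without TNF, 39 and 39 of 41, with medians of 1.58 and 1.85. Only 2 differences passed, Slfn4 and Bst2, both less positive with TNF (-1.18 and -1.0 on the log2 scale) (singled out after their values were seen). Mx1 had a gel difference of 3.43 with TNF and 4.89 without, and the test of the difference gave -1.45 (adjusted p = 0.106). For Cxcl10 the values were 3.61 with TNF and 4.46 without (-0.85, adjusted p = 0.375). The resident macrophage list had 12 lower members with TNF and 12 without, and 0 of 19 differences passed. Cd163 had -2.70 with TNF and -2.19 without, and Igf1 -1.74 and -2.27.

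**Figure D5:**
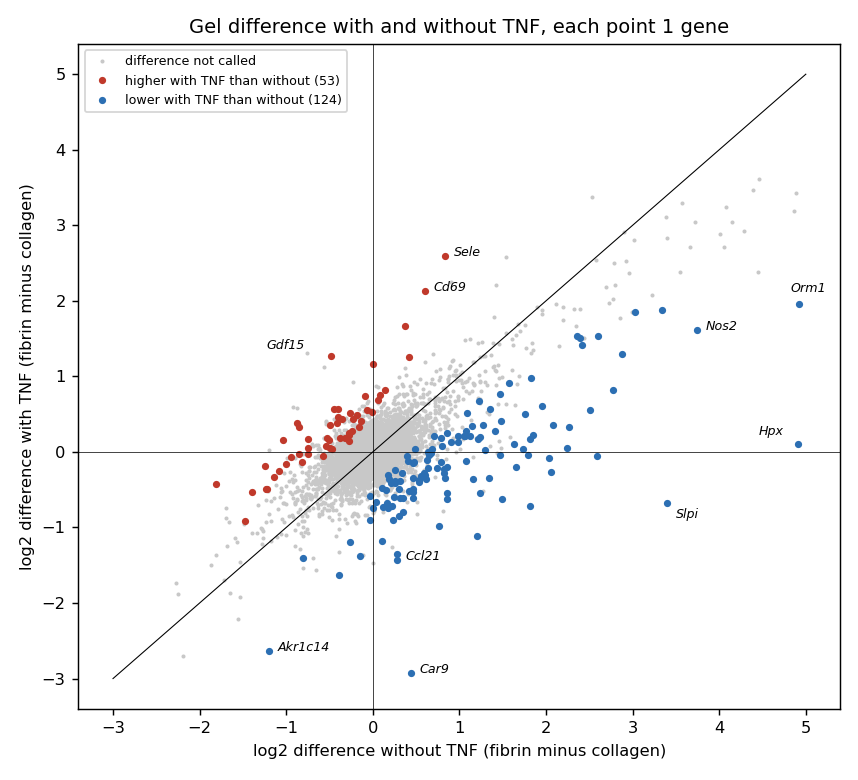
Gel difference with TNF (fibrin TNF minus collagen TNF, y axis) against the gel difference without TNF (fibrin control minus collagen control, x axis), log2, 1 point per gene, with the line of equal differences. Coloured points are genes whose 2 differences differ by limma, 53 more positive and 124 more negative with TNF; Hpx and Slpi lie far right near or below 0 on the y axis, and Sele and Car9 lie away from the line on opposite sides.

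Genes whose gel difference was more positive with TNF were led by Sele. Its levels were 8.18, 8.41 and 8.35 in fibrin TNF and 5.54, 5.84 and 5.79 in collagen TNF, and 6.46, 6.66 and 6.47 in fibrin control and 5.98, 5.49 and 5.60 in collagen control. The gel difference was 2.59 with TNF and 0.84 without (difference 1.75 ± 0.18, adjusted p = 4.82e-04), and the fibrin TNF arrays stood apart from all the others. Gdf15, a stress-induced secreted factor, had a gel difference of 1.27 with TNF and -0.48 without (1.74 ± 0.17, adjusted p = 4.34e-04); it had 9.04 to 9.44 in fibrin TNF, 7.79 to 8.23 in collagen TNF, 8.18 to 8.31 in fibrin control and 8.67 to 8.77 in collagen control. Cd69, an early activation antigen of leukocytes, had 2.13 with TNF and 0.61 without (1.53 ± 0.29, adjusted p = 0.0249). The alarmin Il33 had 8.21, 8.49 and 7.91 in fibrin TNF against 7.03, 6.96 and 7.15 in collagen TNF, and no gel difference was called without TNF (1.16 with TNF, -0.00 without; difference 1.16 ± 0.24, adjusted p = 0.0345). The oxidised lipoprotein receptor Olr1 had 1.67 with TNF and 0.38 without (1.30 ± 0.26, adjusted p = 0.0333).

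The calls for Cd69, Il33 and Olr1 were lost without several single arrays, at adjusted p of up to 0.0731, 0.0886 and 0.0900. For Cd69 these were fibrin TNF replicate 1, collagen TNF replicates 2 and 3, fibrin control replicate 2 and collagen control replicate 2. For Il33 they were the TNF arrays other than fibrin TNF replicate 3, fibrin control replicates 2 and 3 and collagen control replicate 3. For Olr1 they were 9 of the 12 arrays, all but fibrin TNF replicate 2, collagen TNF replicate 2 and collagen control replicate 3. Cd83, a maturation marker of dendritic cells, had 0.32 with TNF and -0.86 without (1.18 ± 0.15, adjusted p = 0.00322), and the Fc receptor for IgM, Fcmr, had -0.42 with TNF and -1.81 without (1.39 ± 0.13, adjusted p = 4.34e-04).

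On the other side, the most negative shifts were those of Hpx, Slpi, Car9 and Orm1. Hpx, the haem-binding protein hemopexin, had 11.50, 11.59 and 10.20 in fibrin TNF and 11.56, 11.28 and 10.12 in collagen TNF, and 11.90, 11.39 and 9.66 in fibrin control and 6.48, 6.28 and 5.45 in collagen control. The gel difference was 0.11 with TNF and 4.91 without (difference -4.80 ± 0.79, adjusted p = 0.0106), and the collagen control arrays alone were low. Slpi, an inhibitor of neutrophil proteases, had 9.94, 10.51 and 9.70 in fibrin TNF and 10.62, 10.66 and 10.90 in collagen TNF, and 9.78, 9.96 and 9.75 in fibrin control and 6.50, 6.31 and 6.50 in collagen control (-0.68 with TNF and 3.40 without; difference -4.07 ± 0.23, adjusted p = 5.10e-06). Orm1, an acute-phase glycoprotein, kept a gel difference under TNF, 1.96 against 4.92 without (-2.96 ± 0.32, adjusted p = 8.58e-04), and Lcn2 had 1.30 against 2.88 without (-1.58, adjusted p = 0.0187, lost without collagen TNF replicate 1 or 2). Of 25 acute-phase and antiprotease genes, 3 were higher and 4 lower in fibrin with TNF, 9 higher and 1 lower without, and 7 differences were more negative with TNF. The 4 lower were 1 without fibrin TNF replicate 1 and 2 without collagen TNF replicate 2 or 3.

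Levels were also lowest on the collagen control arrays for the complement component C3, with 7.84 to 8.57 in fibrin TNF, 8.19 to 8.56 in collagen TNF, 8.60 to 8.84 in fibrin control and 6.52 to 6.78 in collagen control (-0.26 with TNF and 2.06 without; difference -2.32 ± 0.23, adjusted p = 4.82e-04). The same held for Mmp3 (0.33 with TNF and 2.27 without; -1.94 ± 0.29, adjusted p = 0.00619), Mmp9 (0.03 and 1.74; -1.71 ± 0.26, adjusted p = 0.00672) and the inhibitor Timp1 (0.21 and 1.12; -0.91 ± 0.11, adjusted p = 0.00217). Nos2 differed from them in that the gels stayed apart under TNF, 1.61 with TNF and 3.74 without (-2.13 ± 0.20, adjusted p = 4.34e-04). Among 20 CC and other chemokines, 7 differences were more negative with TNF and 0 more positive. Ccl9 had -0.72 with TNF and 1.81 without (-2.53 ± 0.24, adjusted p = 4.34e-04), Ccl19, a CCR7 ligand, -0.20 and 1.66 (-1.86, adjusted p = 8.58e-04), and Ccl2 0.50 and 1.75 (-1.26, adjusted p = 0.0345). The call for Ccl2 was lost without any 1 of the 6 TNF arrays, fibrin control replicate 1 or 2 or collagen control replicate 2, at an adjusted p of up to 0.0943. Gabrp, a subunit of the GABA-A receptor, had -1.11 with TNF and 1.20 without (-2.31 ± 0.35, adjusted p = 0.00619).

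Car9 and 7 other genes of glycolysis and hypoxia differed in the same test. Car9 had a gel difference of -2.92 with TNF and 0.44 without (difference -3.36 ± 0.46, adjusted p = 0.00358); its levels were 8.36, 9.09 and 9.86 in fibrin control and 8.23, 8.56 and 9.21 in collagen control, so it was low on the fibrin TNF arrays alone. Over the 38 genes of glycolysis and hypoxia, 1 was higher and 10 lower in fibrin with TNF, 9 higher and 1 lower without, and 8 differences were more negative with TNF and 0 more positive. Pdk1 had -0.73 with TNF and 0.11 without (-0.85, adjusted p = 0.0187), Ndrg1 -0.68 and 0.16 (-0.84, adjusted p = 0.0265) and Ldha -0.24 and 0.26 (-0.50, adjusted p = 0.0309). The tip-cell genes Dll4 (-0.74 with TNF and 0.00 without; -0.74, adjusted p = 0.0276) and Apln (-0.62 and 0.32; -0.93, adjusted p = 0.00773) shifted the same way. Angpt1 had -0.55 with TNF and 1.24 without (-1.78 ± 0.17, adjusted p = 4.34e-04), and Igfbp3 -1.19 and -0.26 (-0.92, adjusted p = 0.0235). Of these, the calls for Pdk1, Ndrg1, Ldha, Dll4 and Igfbp3 did not hold without some single arrays. For Pdk1 these were collagen TNF replicates 2 and 3 and fibrin control replicate 2 (adjusted p up to 0.0565). For Ndrg1 they were 8 of the 12, all but fibrin TNF replicate 2, collagen TNF replicate 1, fibrin control replicate 1 and collagen control replicate 2 (up to 0.0721). For Ldha they were all but fibrin TNF replicate 2 (up to 0.0854). For Dll4 they were all but fibrin TNF replicate 2, collagen TNF replicate 1, fibrin control replicate 2 and collagen control replicate 1 (up to 0.0778). For Igfbp3 they were the 3 collagen TNF arrays, fibrin control replicates 1 and 3 and collagen control replicates 2 and 3 (up to 0.0680). Akr1c14 was lower in fibrin TNF, with a gel difference of -2.63 with TNF and -1.19 without (difference -1.44 ± 0.21, adjusted p = 0.00619).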

How the data were processed

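Expression was measured on 12 arrays. The values are the authors' deposited expression table on a log2 scale, with 27342 probe sets and no missing value; the log2 unit was read from the range of the values. The sources used here do not give how they were summarised or normalized; limma is named per the submitters' processing notes, with no version. Samples were grouped by their titles; a tissue label that mentions collagen also for fibrin samples was not used. Of the probe sets, 15097 had 1 gene symbol in the platform annotation, 323 had several and 11922 had none; 15067 of the first matched a RefSeq gene. For each of 14324 genes the probe set with the highest mean over the 12 arrays was kept (499 genes had more than 1). One limma model (version 3.58.1, R 4.3.3) was fitted to the 4 groups, without covariates, with Benjamini-Hochberg adjustment over all genes. On simulated data with 200 changed genes of 14324, it recovered 74% of changes of 0.5 and 99% of changes of 1, and 5.46% of its calls were false. No batch information was at hand. The comparison, gene lists and tests were chosen with earlier results of these data known. Genes were named from the 15 largest and 15 smallest called differences whose arrays do not overlap; up to 6 called and 3 uncalled members of each list; the 10 largest and 10 smallest called differences between the gel effects with and without TNF; and 30 fixed names, of which 27 were measured. Exceptions are said to be singled out after their values were seen. Alternatives were quantile normalization, median centring, removal of the dimmest genes, a fit of the 6 TNF arrays alone, a trended robust prior, array weights, the mean of all probe sets of a gene, the replicate number as a block, and leaving out each array.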

Additional observations from a re-analysis of the deposited data

Results flagged for a closer look

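For 44 named genes, the limma test found the gel difference with TNF (fibrin TNF minus collagen TNF) to differ from the gel difference without TNF (fibrin control minus collagen control). Values in parentheses are the log2 difference with TNF minus the one without.

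Among defence, acute-phase and chemokine genes the gel difference was more negative with TNF for Hpx (-4.80), Slpi (-4.07), Orm1 (-2.96), C3 (-2.32), Lcn2 (-1.58), Nos2 (-2.13), Ccl9 (-2.53), Ccl19 (-1.86) and Ccl2 (-1.26). The same was found for the proteinase genes and their inhibitor, Mmp3 (-1.94), Mmp9 (-1.71) and Timp1 (-0.91), and for the interferon-response genes Slfn4 (-1.18) and Bst2 (-1.0). Hypoxia, growth-factor and tip-cell genes on this side were Car9 (-3.36), Pdk1 (-0.85), Ndrg1 (-0.84), Ldha (-0.50), Angpt1 (-1.78), Igfbp3 (-0.92), Apln (-0.93) and Dll4 (-0.74), with the metabolic enzyme Akr1c14 (-1.44) and the receptor subunit Gabrp (-2.31). The gel difference was more positive with TNF for Sele (1.75), Gdf15 (1.74), Cd69 (1.53), Fcmr (1.39), Olr1 (1.30), Cd83 (1.18) and Il33 (1.16).

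The other 13 were not given above with this test. Cxcl13 had a gel difference of 0.35 with TNF and 2.08 without (test of the difference -1.73 ± 0.24, adjusted p = 0.00433). For Ccl21 the values were -1.43 with TNF and 0.28 without (test of the difference -1.71 ± 0.32, adjusted p = 0.0212). Aldh3a1 had -1.36 with TNF and 0.28 without (test of the difference -1.64 ± 0.18, adjusted p = 0.00106). Gap43 had -1.62 with TNF and -0.39 without (test of the difference -1.23 ± 0.18, adjusted p = 0.0054). The class I gene RT1-S3 had 1.54 with TNF and 2.36 without (test of the difference -0.82 ± 0.17, adjusted p = 0.0377). Tgfbi was lower in fibrin in both cases, at -1.41 with TNF and -0.81 without (test of the difference -0.60 ± 0.12, adjusted p = 0.0269). Mfap5 was less negative with TNF, at -0.91 with TNF and -1.48 without (test of the difference 0.57 ± 0.11, adjusted p = 0.0295), and Gstm1 was more positive, at 0.82 with TNF and 0.14 without (test of the difference 0.67 ± 0.11, adjusted p = 0.0105). The thyroid hormone-inactivating enzyme Dio3 (1.20), 6330403K07Rikl (1.26) and the cytokine-like gene Cytl1 (1.06) were more positive with TNF. The phospholipase Pla2g2a (-2.20) and Scgb1b24 (-2.64) were more negative. Calls for 6330403K07Rikl, Cytl1 and Pla2g2a were lost in 6, 10 and 7 of the fits that left out 1 array. Calls for Ccl21, RT1-S3, Tgfbi and Mfap5 were lost in 5 to 9 of the fits that left out 1 array.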

How the results depend on the processing

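No called difference of a named gene followed through the alternatives changed direction. Uncalled differences and list medians near 0 could change sign. Median centring moved the median over all genes from -0.0043 to 0.0363. The 1173 genes that differed between fibrin TNF and collagen TNF became 1140 with quantile normalization and 859 when only the 6 TNF arrays were fitted, and 727 to 1196 when 1 array was left out; the 652 higher genes became 428 to 612 and the 521 lower ones 299 to 584. The 177 genes whose gel difference differed with and without TNF became 294 without the dimmest genes, 339 with a trended robust prior, and 103 to 246 without 1 array. The 53 more positive with TNF became 108, 127 and 22 to 77 under the same changes, and the 124 more negative became 212 with the trended prior and 81 to 169 without 1 array. The cause of these shifts was not tested. Deviations of arrays with the same replicate number correlated at 0.053, 0.0311 and 0.143 between fibrin TNF and collagen TNF. Pairs of unlike number correlated at -0.0874 to 0.0346. Each fibrin TNF array correlated most with the collagen TNF array of its own number. Collagen TNF replicate 2 correlated slightly more with fibrin TNF replicate 1 (0.0346) than with its own number. The labels state no block, so the main fit did not pair the samples. Whether arrays of the same number shared a batch was not tested. With the replicate number as a block, 1484 genes differed between the gels (803 higher, 681 lower), and 276 gel differences differed with and without TNF (89 more positive, 187 more negative). Of the 30 genes of largest and smallest difference, 29 kept their call in every alternative. Calls of 178 named genes were followed through the alternatives. Of their 128 called gel differences with TNF, 10 lost their call in at least 1 alternative. So did 17 of their 42 called differences between the gel effects with and without TNF. These 42 leave out some of the flagged genes. Of the 20 largest and smallest differences of this second kind, 6 lost their call. With 3 arrays per group, changes near 0.5 on the log2 scale were recovered only in part in simulated data.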

Other observations

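Complement genes went both ways. Of 21 measured, 5 were lower and 2 higher in fibrin TNF, or 1 higher without fibrin TNF replicate 1, fibrin TNF replicate 2 or collagen TNF replicate 3. C1qb, a subunit of the first component made by macrophages, had 7.35, 7.56 and 7.49 in fibrin TNF and 8.52, 8.33 and 8.81 in collagen TNF (-1.08 ± 0.13, limma adjusted p = 2.10e-04). Cfd, the protease that starts the alternative pathway and is abundant in fat, was lower (-0.94 ± 0.13), whereas C3ar1, the receptor of the C3a fragment, was higher (0.93 ± 0.14). C1r, a protease subunit of the first component, was not called (0.10 ± 0.06, adjusted p = 0.329).

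Genes of the integrated stress response were higher in part. Of 24 measured, 4 were higher and 1 lower in fibrin TNF, and 0 were lower without fibrin TNF replicate 1 or 3 or any 1 of the collagen TNF replicates. Ddit3, a transcription factor of prolonged stress, had 9.71, 9.61 and 10.05 in fibrin TNF and 8.95, 8.77 and 8.94 in collagen TNF (0.90 ± 0.13, adjusted p = 7.26e-04), and Atf3 was higher (0.69 ± 0.12). The chaperone Hspa5, a marker of stress in the endoplasmic reticulum, overlapped at 12.76 to 12.84 in fibrin TNF and 12.75 to 12.86 in collagen TNF (0.01 ± 0.06, adjusted p = 0.963). Lpl, which releases fatty acids from lipoproteins, was lower (-1.25 ± 0.15, adjusted p = 1.70e-04).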
